A study of Mus musculus with 6 samples.

Results

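Trimethylation of lysine 4 on histone H3 (H3K4me3) is a chromatin mark that sits over the starts of active genes, and its peaks are used to find promoters. The peaks described here are those H3K4me3 peaks of natural killer (NK) cells that were called with an intact Tcf7 gene and again without Tcf7, and that lie away from the transcription start sites (TSSs) named in the deposited peak lists. Members were distinct peaks of the WT list on chromosomes 1 to 19 and X that were shorter than 4000 bp, shared at least 1 bp with a KO peak and had no listed TSS within 2.5 kb. They were thus chosen by the peak calls, lengths and positions of these 2 H3K4me3 libraries. The listed TSSs came from all 4 peak lists, the Tcf1 lists included. This gave 1261 of 13753 WT peaks on those chromosomes (9.17%, 95% Wilson interval 8.70 to 9.66), out of 13771 distinct WT peaks in all. Of the 10664 WT peaks that overlapped a KO peak, 9827 were below the length limit, and 8566 of those had a listed TSS within 2.5 kb. Those 8566 peaks are called near-TSS peaks below and serve as the comparison.

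The cells were IL-2 activated NK cells from spleen, grown for 5 days with IL-2 at 500 ng/mL, in all groups. The WT cells carried Tcf7+/+ and came from strain B6. The KO cells carried Tcf7-/- and came from strain B6.129 Tcf7Tm1Cle, so the strain and the deletion cannot be told apart. The product of Tcf7 is Tcf1, a transcription factor that Wnt signals can act through, and the age, sex and number of mice are not given in the sources used here. Each genotype had an input library, which was not analysed here, a Tcf1 library and an H3K4me3 library. With 6 libraries in 6 groups there was 1 library per group, so differences were not checked in replicates and p-values are not given. Each value in tags is a count of reads inside a called peak, which is not scaled to depth, and library depths are unknown here. The WT H3K4me3 list held 6635272 tags in peaks and the KO list 7507763. All 7 NK cell markers examined, among them Ncr1, Eomes and Prf1, were marked in both genotypes, by a peak no more than 1 kb from the TSS. Of the 3 T cell markers whose TSS was listed, 2 had such a peak in WT (Cd3e and Cd3d) and 0 in KO. Of the other markers listed, 0 of 1 B cell gene was marked, 1 of 1 myeloid gene in WT alone (Cd14) and 1 of 2 erythroid genes in both (Klf1). Their part in the results was not tested.

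Many mammalian genes have several promoters, and an alternative promoter can start a transcript far inside the gene. Promoters differ in their content of the CG dinucleotide: CpG islands are CG-rich stretches that attract the enzymes that write H3K4me3, whereas CG-poor promoters are used mainly in particular cell types. Transfer RNA (tRNA) genes have their own polymerase and are often flanked by H3K4me3 when active. A TSS list that lacks such starts places their peaks "away from a TSS".

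That was the case for a large share of these peaks. Against the RefSeq promoter table (assembly GRCm38.p6), 519 of the 1261 members (41.2%, 38.5 to 43.9) held a RefSeq start within the peak itself. The label of the set, peaks away from TSSs, therefore does not hold for these 519, and the set is described here by its rule: no listed TSS within 2.5 kb. Among the near-TSS peaks 6778 of 8566 (79.1%, 78.3 to 80.0) held a RefSeq start. Bases upstream of 8 such starts are printed first, since they show the range of promoters in the set. Each is the 250 bases before the RefSeq start, from RefSeq GRCm38.p6, written 5′ to 3′ on the strand of the gene, with CG dinucleotides in capitals. The first 4 are CG-rich starts of Rreb1, Notch1, Runx1 and Foxp1, the next 2 are CG-poor starts of Stat4 and Fcgr3, and the last 2 are starts of Nfe2l1 and Zfp433 that the results return to.
Rreb1: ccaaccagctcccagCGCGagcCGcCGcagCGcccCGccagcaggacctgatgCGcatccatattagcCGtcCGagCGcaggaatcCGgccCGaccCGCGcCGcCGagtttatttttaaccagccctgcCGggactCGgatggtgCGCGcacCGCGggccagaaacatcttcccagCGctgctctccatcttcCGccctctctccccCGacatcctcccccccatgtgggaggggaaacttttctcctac
Notch1: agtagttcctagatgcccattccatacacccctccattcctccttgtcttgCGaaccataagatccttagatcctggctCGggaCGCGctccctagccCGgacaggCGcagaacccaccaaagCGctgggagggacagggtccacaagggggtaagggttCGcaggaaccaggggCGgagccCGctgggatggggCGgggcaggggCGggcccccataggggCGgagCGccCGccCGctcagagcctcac
Runx1: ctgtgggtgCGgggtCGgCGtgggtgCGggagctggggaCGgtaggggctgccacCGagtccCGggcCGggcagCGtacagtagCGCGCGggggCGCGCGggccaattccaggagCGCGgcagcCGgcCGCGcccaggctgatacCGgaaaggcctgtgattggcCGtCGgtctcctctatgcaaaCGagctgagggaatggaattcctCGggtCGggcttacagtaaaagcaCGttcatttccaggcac
Foxp1: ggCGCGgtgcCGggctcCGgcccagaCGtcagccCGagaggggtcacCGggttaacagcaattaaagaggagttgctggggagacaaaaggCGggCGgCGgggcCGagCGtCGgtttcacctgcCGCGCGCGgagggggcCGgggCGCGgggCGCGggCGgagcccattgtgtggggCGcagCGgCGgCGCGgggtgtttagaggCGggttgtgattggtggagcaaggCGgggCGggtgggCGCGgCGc
Stat4: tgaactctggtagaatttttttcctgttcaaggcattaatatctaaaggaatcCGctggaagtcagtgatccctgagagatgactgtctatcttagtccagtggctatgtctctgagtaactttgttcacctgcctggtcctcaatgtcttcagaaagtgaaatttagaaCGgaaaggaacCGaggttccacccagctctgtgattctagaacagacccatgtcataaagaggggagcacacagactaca
Fcgr3: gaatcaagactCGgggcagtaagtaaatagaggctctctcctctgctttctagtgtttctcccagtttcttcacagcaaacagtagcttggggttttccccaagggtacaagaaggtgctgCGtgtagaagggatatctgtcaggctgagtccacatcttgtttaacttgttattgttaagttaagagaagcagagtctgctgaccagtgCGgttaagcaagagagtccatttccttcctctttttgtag
Nfe2l1: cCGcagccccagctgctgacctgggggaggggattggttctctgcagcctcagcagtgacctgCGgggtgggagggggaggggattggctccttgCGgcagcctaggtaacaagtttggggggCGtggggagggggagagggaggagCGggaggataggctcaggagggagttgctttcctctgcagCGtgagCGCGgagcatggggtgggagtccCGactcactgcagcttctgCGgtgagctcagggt
Zfp433: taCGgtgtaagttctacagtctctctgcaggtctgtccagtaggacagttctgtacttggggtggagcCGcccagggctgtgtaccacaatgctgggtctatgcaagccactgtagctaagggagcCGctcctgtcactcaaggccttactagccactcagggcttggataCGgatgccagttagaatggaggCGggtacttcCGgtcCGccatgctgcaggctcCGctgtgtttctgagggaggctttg

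The stretch of Rreb1 lies at chr13:37826662-37826911 on the plus strand and holds 25 CG, and that of Notch1 at chr2:26503823-26504072 on the minus strand holds 16. The Runx1 stretch lies at chr16:92697330-92697579 on the minus strand with 27 CG, and the Foxp1 stretch at chr6:99028299-99028548 on the minus strand with 34. Both CG-poor stretches hold 3 CG each, at chr1:52007990-52008239 on the plus strand for Stat4 and at chr1:171059395-171059644 on the minus strand for Fcgr3. The Nfe2l1 stretch at chr11:96823932-96824181 on the minus strand holds 10 CG, and the Zfp433 stretch at chr10:81704575-81704824 on the plus strand holds 8. The Zfp433 start was chosen after its values were seen.

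The rest of the set fell into 5 further classes. A RefSeq start lay outside the peak but within 2.5 kb for 41 members (3.25%), and 31 others held a tRNA gene (2.46%). Another 196 (15.5%) had a bound of a RefSeq gene, at either end, within 2.5 kb. For 427 members (33.9%, 31.3 to 36.5) none of these annotations lay within 2.5 kb, against 86 of the 8566 near-TSS peaks (1.00%, 0.814 to 1.24). Starts were not read on chromosome 18, which held 47 members (3.73%). By the summit, 1008 members (79.9%, 77.6 to 82.1) lay inside a RefSeq gene and 752 (59.6%, 56.9 to 62.3) inside a listed gene. The median distance to the nearest listed TSS was 13.9 kb, with quartiles of 6.59 and 31.9 kb.

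Members were weaker peaks than those near a listed TSS, in both libraries. The median member had 251 tags in WT and 262 in KO, with a median length of 1949 bp. The median near-TSS peak had 486 tags in WT and 596 in KO, with a length of 2145 bp. The authors' fold enrichment over background had a median of 20.8 in WT and 10.6 in KO for members, against 41.3 and 19.3 for near-TSS peaks. Folds of the KO list were lower in both sets, so they are read within each list. The class that held a RefSeq start had the highest medians of the 6 classes, 356 WT tags and a WT fold of 31.4, and the class without any annotation had 179 tags and a fold of 14.1. The share of members that held a RefSeq start went from 5.88% at a WT fold below 5 to 14.2%, 28.6%, 49.6% and, at a fold of 40 or more, 70.4%. The member with the most WT tags was nonetheless in the class without annotation: a 3728 bp peak with its summit 25.7 kb from the TSS of Gltscr1l, at chr17:46855350-46859077, with 2206 tags in WT and 2426 in KO. By WT fold it had 69.63, below the 109.15 of the member at Set.

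**Figure D1:**
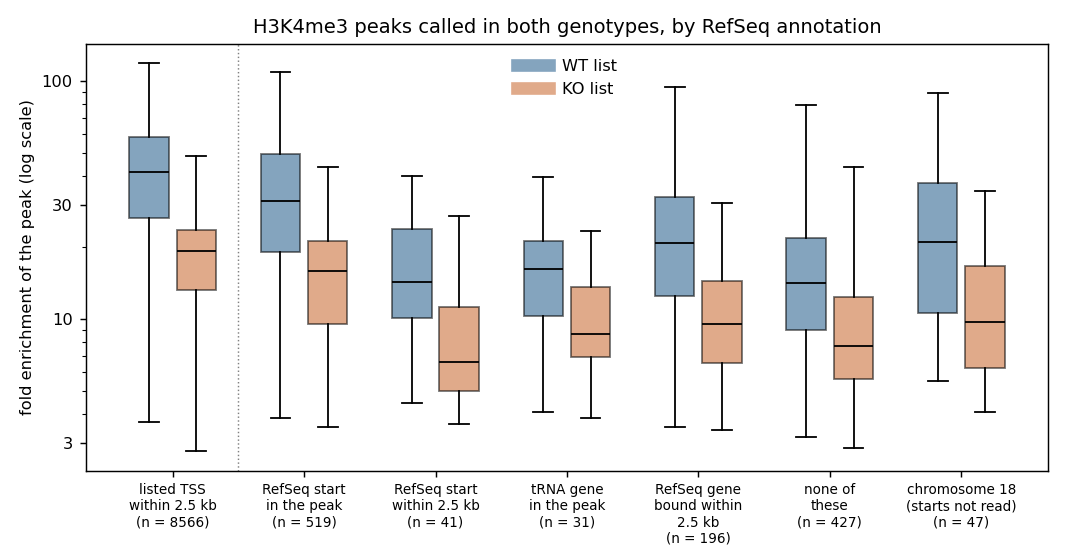
Fold enrichment of H3K4me3 peaks (vertical axis, log scale) by RefSeq annotation (horizontal axis), for the 8566 near-TSS peaks and the 6 classes of the 1261 members, in the WT list (blue) and the KO list (orange). Boxes span the quartiles with the median as a line, and whiskers span all values; among members, those holding a RefSeq start had the highest medians, 31.4 in WT and 15.9 in KO.

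Peaks that also had no listed TSS within 2.5 kb but were called in WT alone looked different. There were 1558 of them below 4000 bp, with a median of 50 WT tags and a median fold of 6.27. Of these, 134 (8.60%, 7.31 to 10.1) held a RefSeq start, against 41.2% of members, and 1050 (67.4%, 65.0 to 69.7) had no annotation within 2.5 kb, against 33.9%. Both sets came from the WT list, and membership rests on the KO call, so the contrast is a description. The share of such WT peaks that were also called in KO was 5.23% at a WT fold below 5 (17 of 325 peaks) and 16.4% from 5 to 10. It was 66.6% from 10 to 20, 97.2% from 20 to 40 and 100.0% above (267 peaks, interval 98.6 to 100.0). At a fold from 5 to 10, 14.2% of the 204 members held a RefSeq start and 7.77% of the 1042 peaks called in WT alone. From 10 to 20 the shares were 28.6% of 392 and 20.3% of 197. From 20 to 40 they were 49.6% of 381 and 27.3% of only 11.

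The summits of these members stood at a similar distance from the start as those of near-TSS peaks. H3K4me3 usually peaks just downstream of the start, over the first nucleosomes of the transcribed side. In the 519 members with a start, the WT summit lay a median of 238 bp downstream of the start, with quartiles of 156 and 321 bp. In the 6778 near-TSS peaks it lay 242 bp downstream, with quartiles of 183 and 303 bp. The summit was on the downstream side in 466 of 519 members (89.8%) and in 90.3% of near-TSS peaks. Where a peak held several starts the nearest to the summit was used, and in the 410 members with a single start 381 summits (92.9%) were downstream. With KO summits the count was 468 (90.2%). The WT and KO summits lay a median of 30 bp apart in members and 22 bp apart in near-TSS peaks.

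**Figure D2:**
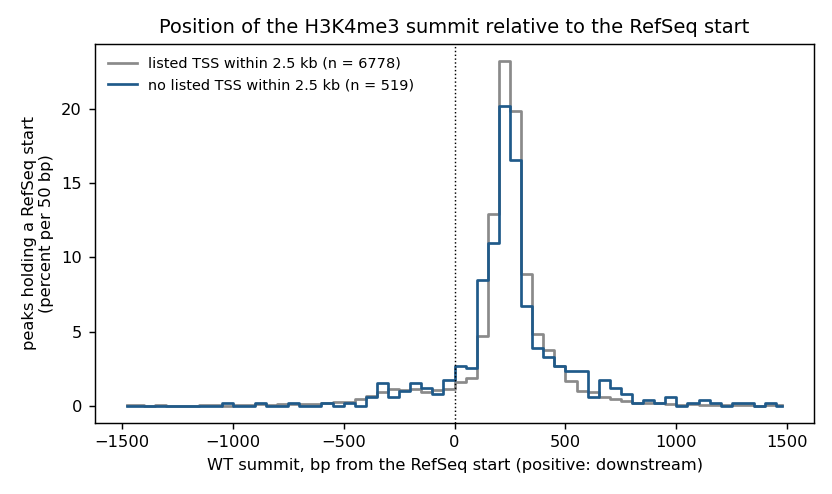
Distance of the WT H3K4me3 summit from the RefSeq start it holds (horizontal axis, bp, positive downstream in the direction of transcription; values beyond 1500 bp are not drawn) as a percentage of peaks per 50 bp, for 519 members (blue) and 6778 near-TSS peaks (grey). Both distributions peak between 200 and 300 bp downstream, with medians of 238 and 242 bp.

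Of the 519 starts, 434 belonged to protein-coding genes and 85 to long noncoding RNAs (lncRNAs). For 374 of them the gene itself was in the deposited lists with another TSS, and for 145 the gene was not listed; 83 of those 145 were lncRNA genes. Where the gene was listed, the start in the member lay downstream of the listed TSS in 326 cases, at a median of 15.2 kb (quartiles 7.12 and 36.6 kb), and upstream in 48. Only 93 of the 374 (24.9%, 20.8 to 29.5) were at the 5′ bound of the RefSeq gene, within 50 bp, so most were internal starts. The 374 starts belonged to 369 genes. At 199 of these genes (53.9%, 48.8 to 58.9) the listed TSS had no H3K4me3 peak within 1 kb in either genotype, so the member was at the marked start and the listed TSS was not. The listed TSS was marked in both genotypes at 146 genes, in WT alone at 24 and in KO alone at 0.

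Rreb1, a zinc finger transcription factor of Ras signalling, had 2122 WT and 2433 KO tags at a start 48.5 kb inside the gene, and no peak at its listed TSS in either library. Jade1, a subunit of a histone acetyltransferase complex (listed under its older symbol Phf17), had 1850 and 2099 tags at a start 9.15 kb inside, again with an unmarked listed TSS. Notch1, the receptor that directs lymphocyte fate, had 1399 and 1778 tags at a start 12.8 kb from its listed TSS. In each of these genes the listed TSS had no peak within 1 kb in either genotype. The rule itself requires the member's peak in both genotypes. Set, which encodes a histone chaperone, had 2 members. One had 1584 WT and 1817 KO tags at a start 9.10 kb inside the gene. The other had 887 and 1216 tags at the 5′ bound of the RefSeq gene, 4.62 kb downstream of the listed TSS. Stat4, the transcription factor activated by interleukin-12 in NK cells, had 490 WT and 466 KO tags at the CG-poor start printed above, 21.1 kb inside the gene (124 and 200 tags per kb, as the KO peak was narrower). Its listed TSS had no peak within 1 kb in either library.

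Where both starts of a gene were marked, neither was the stronger as a rule. Over the 146 genes, tags per kb of peak were higher at the member in 63 genes in WT and in 62 in KO, and the denser side was the same in both libraries in 133. The median WT density was 174 tags per kb at the member and 212 at the listed TSS, and the KO medians were 222 and 276. Zfp800, a zinc finger gene, had 538 WT tags per kb at a start 136 kb inside the gene and 138 at its listed TSS. In KO the values were 618 and 141, the same order. Satb1, a chromatin organiser of lymphocytes, had similar densities at both starts, 455 at the member and 437 at the listed TSS in WT, and 585 and 526 in KO. Foxp1, a forkhead factor of lymphocytes, had its member 494 kb inside the gene, with 824 WT and 953 KO tags, against 1417 and 1376 at the listed TSS. Per kb of peak the starts were closer, with 329 in WT and 352 in KO at the member, and 380 and 361 at the listed TSS.

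Runx1, a factor that shapes lymphocyte development and is known to use a distal and a proximal promoter, had a member 129 kb inside the gene, with 584 WT and 518 KO tags. Its listed TSS had 685 WT and 918 KO tags. Raw tags, not scaled to depth, were thus lower in KO at the member and higher at the listed TSS. Per kb of peak the member had 205 in WT and 196 in KO, and the listed TSS 174 and 273. Fcgr3 encodes the Fc receptor through which NK cells kill antibody-coated cells. Its member, at a start 5.54 kb inside the gene, had 284 WT and 217 KO tags, while its listed TSS had 493 tags in WT and no called peak in KO. Per kb of peak the member had 88.3 in WT and 115 in KO, so the direction turned (centred ratio -0.64, and 0.08 per kb). A missing call does not show that the mark is absent.

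**Figure D3:**
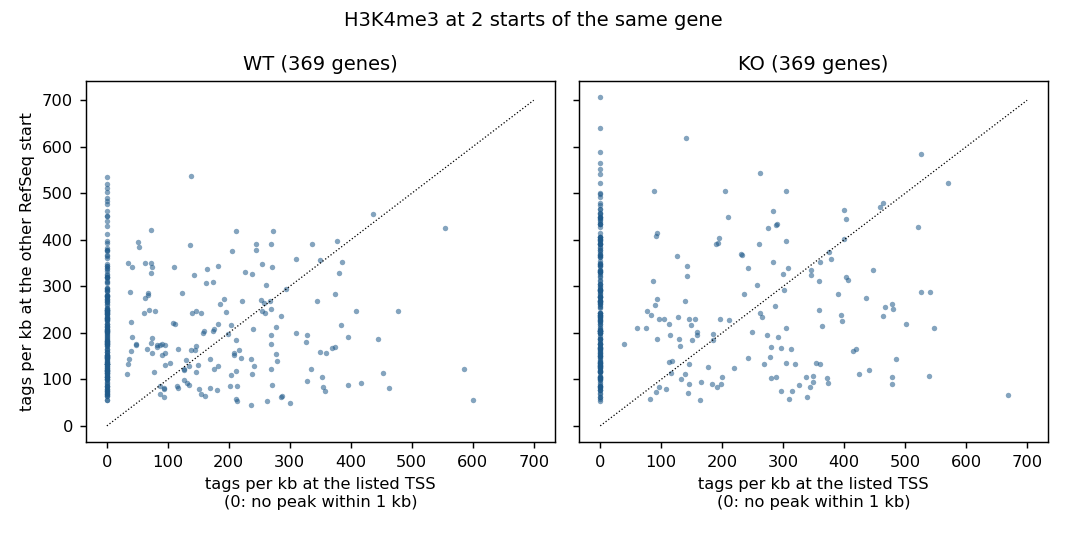
H3K4me3 tags per kb of peak at the listed TSS (horizontal axis; 0 where no peak lay within 1 kb) and at the other RefSeq start, held by a member (vertical axis), for the 369 genes that have both, in WT (left) and KO (right). The dotted line marks equal density. Points on the vertical axis are genes with an unmarked listed TSS, 199 of them in both genotypes, and the 146 genes marked at both starts in both genotypes lie on either side of the line.

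The starts in members varied in CG content and were CpG-rich less often than near-TSS starts. In the 300 bp from 250 before to 50 after the start, 657 starts held by members had a median of 19 CG (quartiles 10 and 29). The 9366 starts in near-TSS peaks had 23, all 32619 starts that could be read 7, and the 20256 starts in no WT H3K4me3 peak 4. A start was called CpG-rich at a G+C share of at least 55% and an observed over expected CG of at least 0.65. By that measure 323 of 657 member starts (49.2%, 45.4 to 53.0) were CpG-rich, against 66.9% of near-TSS starts, 28.3% of all and 6.07% of those in no peak. Protein-coding starts in members had a median of 19 CG and lncRNA starts 12.5. The 259 members at a CpG-rich start had a median of 503 WT and 567 KO tags, and the 260 at other starts 248 and 276. The ratio of KO over WT, explained below, had a median of -0.05 in the first and -0.01 in the second, so CG content went with the level of the mark and little with its ratio between the libraries.

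**Figure D4:**
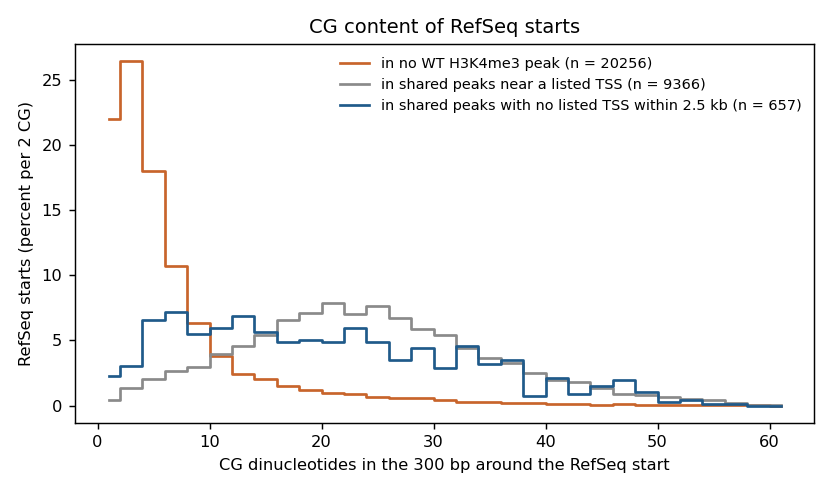
Number of CG dinucleotides in the 300 bp around RefSeq starts (horizontal axis) as a percentage of starts per 2 CG (vertical axis), for 657 starts in members (blue), 9366 starts in near-TSS peaks (grey) and 20256 starts in no WT H3K4me3 peak (orange). Starts in members spread widely around a median of 19 CG, between the medians of 23 and 4 of the other sets.

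A search of these 300 bp for 6 short motifs, on both strands and with overlaps counted as separate motifs, gave the same order for the letters of the ETS family, which in NK cells includes Ets1. The letters CCGGAAG stood in 16.6% of starts in members (13.9 to 19.6), 22.3% of near-TSS starts, 8.92% of all starts and 2.53% of starts in no peak. The motif contains a CG, so its share moves with the CG content. The RUNX letters TGTGGT stood in 15.4% of starts in members (12.8 to 18.3), 11.7% of near-TSS starts and 16.6% of all. The Tcf/Lef letters CTTTGAT stood in 15 of the 657 starts in members (2.28%, 1.39 to 3.73), in 2.40% of near-TSS starts and in 3.76% of all. AP-1 letters (TGANTCA) stood in 6.39%, 3.81% and 7.85% of the same sets, T-box letters AGGTGTGA in 0.913%, 0.651% and 1.28%, and the CTCF motif in 13.5%, 13.5% and 8.67%. A match of letters is not a bound site.

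Tags in KO and WT were compared over merged regions, in which overlapping peaks of both lists are joined. The log2 ratio of KO over WT tags was centred on the median of all regions called in both libraries, which was 0.249, or 1.19-fold more tags in KO. The ratio comes from the same 2 libraries that chose the members, so it is given as a description. Over all 1261 members the centred ratio had a median of -0.07, with quartiles of -0.35 and 0.14. Among the 1159 members with at least 100 tags in either library the median was -0.08 and the SD 0.48, against 0.00 and 0.33 over all 10352 such regions. A ratio above 1, which is more than 2-fold above the centre in KO, was found for 33 members (2.85%, 2.03 to 3.97), with a background of 0.415% over all regions. A ratio below -1 was found for 42 (3.62%, 2.69 to 4.86), with a background of 1.6%. The rule used this contrast, and nothing is read from these counts.

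The width of the peaks moved with both groups of ratios. All 33 members above 1 had a wider KO peak, against 394 of the 1159 members (34.0%), with a median of 1282 bp in WT and 2367 bp in KO, and they were weak peaks: the median was 46.0 WT tags at a WT fold of 6.27. Of the 33, 22 were in the class without annotation, which made up 363 of the 1159, and 6 held a RefSeq start, as did 509 of the 1159. Of the 42 members below -1, 1 had a wider KO peak. Their medians were 2300 bp and 218 tags in WT, and 1490 bp and 110 tags in KO. Per kb of peak, 4 of the 33 remained above 1 and 11 of the 42 below -1. Over all 1159 members, 4 (0.345%, 0.134 to 0.884) were above 1 per kb, with a background of 0.0676% of regions, and 17 (1.47%, 0.918 to 2.34) below -1, with a background of 0.792%. The rule used this contrast as well. No member with a WT fold of 40 or more was above 1, and 2 were below -1, of 267. WT tags enter both the WT fold and the ratio, so a split by WT fold is not independent of the ratio. The SD of the ratio was 0.38 for members that held a RefSeq start and 0.63 for the class without annotation.

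**Figure D5:**
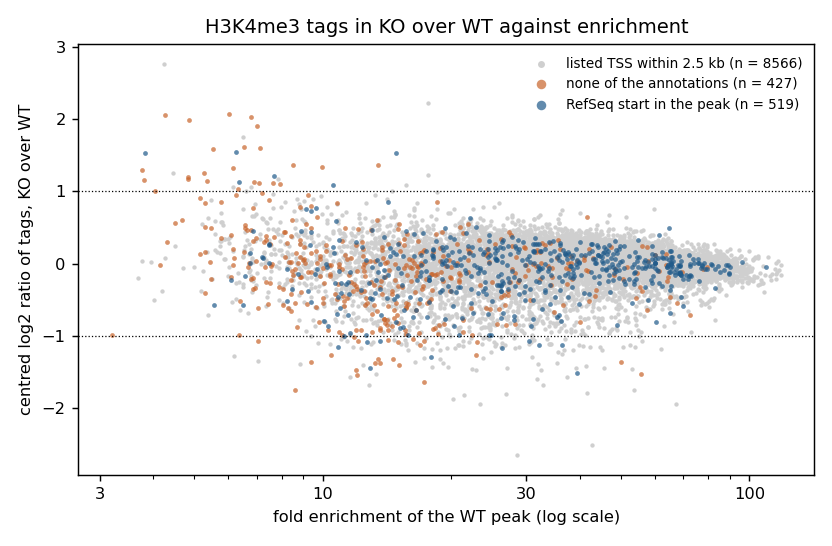
Centred log2 ratio of H3K4me3 tags, KO over WT (vertical axis), against the fold enrichment of the WT peak (horizontal axis, log scale), for the 519 members that hold a RefSeq start (blue), the 427 members without annotation (orange) and the 8566 near-TSS peaks (grey). Dotted lines mark ratios of 1 and -1. Ratios spread most at low fold, where the class without annotation lies, and narrow at high fold.

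The highest ratio was at a member 6.05 kb from a TSS of the predicted gene Gm13247, with 35 tags in WT and 175 in KO (centred ratio 2.07, and 0.33 per kb). A member near Rnf220, a ubiquitin ligase gene, had 38 and 179 tags and a ratio of 1.99, and it kept 1.25 per kb. A member that held the start of the lncRNA gene Gm42031, near Zfp791, had 64 and 223 tags, with a ratio of 1.55 and 1.10 per kb. All 3 had few tags in WT. At the other end, a member near Nol10 had 205 tags in WT and 72 in KO (ratio -1.76, and -0.32 per kb). A member near Med30, which encodes a Mediator subunit, had 234 and 89 tags (-1.64, and -1.07 per kb). The member 4.2 kb from the TSS of Stard10, a lipid transfer protein gene, was a strong peak in WT with 405 tags and a fold of 55.67. It had 166 tags in KO, and its ratio of -1.54 changed little per kb (-1.48).

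Nfe2l1, a transcription factor that raises proteasome genes, had opposite orders of raw tags at its starts. The member at the start printed above, 6.04 kb inside the gene, had 591 tags in WT and 245 in KO, a ratio of -1.52 and -0.63 per kb. Its listed TSS had 553 tags in WT and 738 in KO (212 and 278 per kb). These values are not centred, and the median of all shared regions was 1.19-fold more tags in KO. Cbfa2t3, a transcriptional corepressor gene, had 362 WT and 196 KO tags at a start 20.9 kb inside the gene, with a ratio of -1.13 by either measure. Its listed TSS had 634 and 368 tags. So the tags at Nfe2l1 were lower in KO at 1 of its starts and at Cbfa2t3 lower in KO at both, each from 1 library per genotype.

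Members lay near genes of 9 of the 12 gene lists examined, and near none of the granzymes, B cell markers or myeloid markers. A gene was counted when a member lay within 50 kb of any part of it, so its TSS can be farther away. Of the 168 list genes with a listed position, 38 had such a member (22.6%), with a background of 16.5% over 14135 listed genes. Inside the gene the count was 11, with a background of 5.11%. By list, a member lay near 11 of 27 NK cell receptors and adaptors, 10 of 30 lymphocyte transcription factors, 3 of 18 cytotoxic effectors and 0 of 7 granzymes. It lay near 2 of 18 Tcf/Lef and Wnt genes, 3 of 19 cytokine receptors and signalling genes, 4 of 16 activation-induced factors and 2 of 16 homing genes. Of the markers of other cells, 2 of 9 T cell genes, 0 of 3 B cell, 0 of 2 myeloid and 1 of 3 erythroid genes had one. Several list genes share a member, because receptor genes lie in clusters.

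At the locus of Klrb1c and Klrb1b, which encode NK1.1 and a related lectin-like receptor, 3 members were of like strength in both libraries. The first, at chr6:128797710-128800483 with the start of the lncRNA gene Gm34755, had 358 WT and 423 KO tags (centred ratio -0.01, and 0.27 per kb). The second, 28.7 kb from the Klrb1c TSS and without annotation, had 322 and 446 tags (0.22, and 0.11 per kb). The third, 12.4 kb from the Klrb1b TSS, had 282 and 370 tags (0.14, and -0.02 per kb). A further member lay 4.99 kb from the closest TSS of the receptor genes in the NKG2 cluster, near Klrk1, Klrd1 and Klrc1, with 121 and 144 tags (0.00, and 0.09 per kb). A member 19.8 kb from Tyrobp and Hcst, which encode the adaptors DAP12 and DAP10, had 218 tags in WT and 130 in KO (-0.99, and -0.41 per kb, as the KO peak was narrower). Of the 10 members near receptor and adaptor genes, 5 had a ratio below 0, and 2 had one per kb. The median of all 1261 members was itself below 0 (-0.07, and -0.06 per kb).

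The 10 members near lymphocyte transcription factors had ratios from -1.38 to 0.17, with 8 below 0, and per kb of peak from -0.88 to 0.39, with 6 below 0. Over all 1261 members the median was also below 0 (-0.07, and -0.06 per kb), so nothing is read from these counts. Runx3, which acts in NK cell maturation, had a member 42.7 kb from its TSS with 215 WT and 135 KO tags (-0.92, and -0.09 per kb). Nfil3, needed for NK cell development, had one 20.1 kb away with 180 and 82 tags (-1.38, and -0.88 per kb). Near Prdm1, which encodes Blimp-1, a member 80.8 kb from its TSS had 179 and 141 tags (-0.59, and -0.49 per kb). Near Gata3, a factor of innate and T lymphocytes, a member had 303 WT and 276 KO tags (-0.38, with a counting interval of -0.62 to -0.15, and -0.48 per kb). A member 65.6 kb from the TSS of Irf8, an interferon-related factor, had 251 and 223 tags, and its ratio of -0.42 was 0.12 per kb. Near Ikzf3, an Ikaros family factor, a member had 333 and 346 tags (-0.19, and -0.09 per kb). It lay 87.9 kb from the Ikzf3 TSS and 11.8 kb from that of Grb7. Near Batf, an AP-1 family factor, one had 200 and 252 tags (0.08, and 0.27 per kb). The member near Eomes, a T-box factor of NK cells, was weak, with 36 and 48 tags. The remaining 2 of the 10, at Runx1 and Stat4, are described above.

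Cytotoxic effector genes (16.7%) and cytokine receptor genes (15.8%) had a member within 50 kb about as often as all listed genes (16.5%). Near Fasl, the death ligand gene, a member had 424 WT and 388 KO tags (-0.38, and -0.27 per kb), and near Rab27a, which acts in granule release, one had 138 and 96 tags (-0.77, and -0.47 per kb). Il2rb encodes a chain of the receptor for the IL-2 in the culture, and it had 2 adjoining members 16.2 and 17.9 kb from its TSS. These had 196 WT and 192 KO tags, and 223 and 106 tags, with ratios of -0.28 and -1.32 (-0.19 and -0.41 per kb). Near Jak1, the kinase bound to that receptor, a member had 490 and 508 tags (-0.20, and -0.42 per kb). Of the T cell genes, the member near Cd28 had 276 and 161 tags (-1.03, and -0.60 per kb). The one in Cd247, whose product NK cells also use, lay 57.1 kb from its TSS, with 264 and 304 tags (-0.05).

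Tcf1 peaks were rare at members. A Tcf1 peak of either library overlapped 15 members (1.19%, 0.722 to 1.95), with a background of 2.09% over all WT H3K4me3 peaks and 0.397% (0.284 to 0.554) of near-TSS peaks. Of the 15, 14 overlapped a Tcf1 peak of the KO library, made from cells that lack Tcf7, and 7 overlapped Tcf1 peaks of both. The FDR of the KO Tcf1 peaks at these members ran from 3.7% to 92.1%. In both Tcf1 lists the highest FDR of a peak was 100%. A Tcf1 peak called in WT and not in KO overlapped 1 member (0.0793%, 0.0140 to 0.448), with a background of 0.269%. That member lies 42.3 kb from the TSS of Pwp1, at chr10:85829084-85830307, with 98 WT and 90 KO tags of H3K4me3. Its Tcf1 peak had 35 tags, a score of 61.4 (10 times the negative log10 of the p-value) and an FDR of 21.2%, all by the authors' peak caller. The 15 were short peaks of 631 to 1605 bp with a median WT fold of 6.27, and 0 held a RefSeq start. The most Tcf1 tags among them, 316 in WT and 395 in KO, were at a member 101 kb from the nearest listed TSS, near Kbtbd11, beside 170 WT H3K4me3 tags. The highest WT Tcf1 fold, 27.48, was at a member near Arid1b, with 153 Tcf1 tags in WT and 52 in KO.

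A larger share of members than of near-TSS peaks held tRNA genes. Members that held at least 1 tRNA gene numbered 38 (3.01%, 2.20 to 4.11), against 45 near-TSS peaks (0.525%, 0.393 to 0.702). They held 69 of the 408 tRNA genes placed on these chromosomes. Near-TSS peaks held 55, and 155 lay in any WT H3K4me3 peak. Of the 38 members, 20 held 2 or more. Their median was 184 WT and 204 KO tags, and the centred ratio had a median of -0.07. The member near Mpzl1 with 2 proline tRNA genes had the most tags in both libraries, with 459 WT and 685 KO tags (0.33, and 0.14 per kb). Near Aurkb a member with 4 tRNA genes had 264 and 379 tags (0.27), and near Prss16 one with 2 tRNA genes had 137 and 59 (-1.46, and -0.12 per kb). Within 50 kb of Fcgr3, 3 members held tRNA genes, with 190 and 279, 87 and 97, and 225 and 263 tags. None of these 3 held a RefSeq start of the receptor gene.

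MicroRNA genes were held by 5 members (0.397%, 0.169 to 0.925), against 1.00% of near-TSS peaks. The mature sequences, from RefSeq, of the 2 with the lowest and the highest ratio are printed with the seed, bases 2 to 8, in capitals.
mmu-miR-8120: uGUGCCUUgcaacuuccgagcc
mmu-miR-8119: gAGGAGAGggagcuaggguc

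The member with Mir8120 at chr3:65658286-65659935 had 310 WT and 210 KO tags (-0.81), and the one with Mir8119 at chr4:129555506-129558224 had 152 and 254 (0.49, and 0.27 per kb). Their seeds differ. A member near Mir142, which lies in a leukocyte microRNA gene, shows how peak bounds act on single values. It had 159 tags in WT, while the KO peak that overlaps it spans 11006 bp and has 3546 tags. The merged region had 2647 tags in WT, and the centred ratio was 0.17.

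Few genes held more than 1 member. A single member lay in each of 668 listed genes, 2 in 38 genes and 3 in each of Rreb1, Macf1, Iqsec1 and Gramd1b. Galnt2 was credited with 6, but 1 of its listed models spans 4435 kb with 57 other listed genes inside, while the other spans 114 kb, so those 6 are not peaks of Galnt2. In Gramd1b, a cholesterol transporter gene, the 3 members had 83, 337 and 366 tags in WT and 81, 540 and 572 in KO. In Macf1, a cytoskeletal linker gene, they had 484, 244 and 411 tags in WT and 616, 192 and 593 in KO. In both genes the member with the fewest tags had the lowest ratio. Members within 20 kb of each other formed 57 pairs and 4 groups of 3.

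The densest stretch of the set was a cluster of zinc finger genes on chromosome 10, chosen for description after its values were seen. The megabase that starts at 81 Mb held 12 members, and no other held more than 7. From 81648511 to 82355058 on chromosome 10, 11 members held a RefSeq start, among them those of Zfp433, Zfp781 and Zfp873. Zfp433 had 343 WT and 395 KO tags, Zfp781 122 and 154, and Zfp873 137 and 192. WT tags were fewest at Gm4767, with 76 in WT and 119 in KO, and KO tags at BC024063, with 88 and 103. Ratios in this cluster ran from -0.35 (Gm4924) to 0.40 (Gm4767), all within 1 of the centre, and per kb from -0.69 (BC024063) to 0.43 (Gm10778). The printed start of Zfp433 has 8 CG in 250 bases, and those of Zfp781 and Zfp873 have 8 and 6. Genes of this cluster are near-identical copies in places, so how tags were shared among them is uncertain.

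At the edge of the rule, the 3 members closest to a listed TSS were 2.507, 2.51 and 2.516 kb away with 153, 252 and 320 WT tags, and the 3 peaks just outside were 2.488, 2.488 and 2.484 kb away with 383, 393 and 168. The longest members were 3986, 3976 and 3976 bp long, and the shortest peaks over the limit 4004, 4034 and 4038 bp. The smallest overlap with a KO peak was 59 bp, near Nrros, where the WT peak had 68 tags and the KO peak 1548.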

How the data were processed

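ChIP-seq peak lists of 4 libraries were used (Tcf1 and H3K4me3, WT and KO). Per the submitters' processing notes, Bowtie2 2.1.0 and MACS 1.4 were used, and mm10, GRCm38 and GRCh37 are named with no role. Peak calling settings and the control track are not stated there or in the labels. Positions were read as GRCm38/mm10: 99.88% of listed features with an Entrez identifier overlapped their RefSeq gene. The deposited lists give, per peak, the count of tags, a score of 10 times the negative log10 of the p-value, the fold enrichment as a ratio over background, and the FDR in percent, per the file headers. Peaks were called per library by the authors.

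Rows were reduced to distinct peaks, and starts, which count from 0, were converted to count from 1. TSSs came from the 18633 features in the 4 lists. Starts came from a RefSeq promoter table (32851 starts of 27025 genes) and gene bounds from a RefSeq gene table without strand, both of GRCm38.p6. The class "gene bound" can therefore be either end of a gene. Distances to the nearest listed TSS, and the 2.5 and 50 kb windows, were measured from the peak's edge, and distances to the TSS of a named gene from the WT summit. Overlapping WT and KO peaks were joined into regions, tags were summed, and log2 ratios were centred on the median of 10610 regions called in both. Each list has its own peak widths, which such sums follow, so values per kb of peak are given too. Intervals are 95% Wilson intervals. PCR copies were not identified, so they cover counting error only. Ratios were tested on simulated Poisson counts for fixed regions with at least 100 WT tags, and overlaps on intervals with known overlaps. Peak widths and weak peaks were not simulated, so their effect on the ratios was not tested.

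Members and gene lists were chosen with earlier results of these data known, and the split by RefSeq annotation was chosen after these lists were examined. Members named are the 10 with most WT tags, the 10 highest and 10 lowest ratios at 100 tags or more, members at a Tcf1 peak called in WT alone, up to 4 per gene list within 50 kb, those of the 5 genes with most members, the 5 farthest from a TSS, 3 at each side of each threshold, and up to 10 with an unlisted gene end. All 10 members near lymphocyte transcription factors, the members near Klrk1 and Tyrobp, Arid1b and Kbtbd11, the zinc finger cluster, the tRNA and microRNA genes and some starts go beyond this rule and were chosen after their values were seen. Exons and introns were not assigned, since no exon positions were used. The work used Python 3.11.15 with pandas 2.3.3, numpy 2.4.6 and scipy 1.17.1, and figures were drawn with matplotlib 3.10.9.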

Additional observations from a re-analysis of the deposited data

How the results depend on the processing

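Of 31 alternative values, 21 stayed within 1.5-fold of the count, or within 0.1 of the median ratio. The number of members was 1261. It was 680 with RefSeq gene ends added as possible TSSs and 701 with the starts of the RefSeq promoter table added. Under the other 6 alternatives it ran from 921, at an FDR of at most 1% in both lists, to 1393. The median centred ratio of -0.07 turned to 0.18 without centring, and lay between -0.08 and -0.06 under the other 4. Members above 1 numbered 33, and 4 with tags per kb of peak or with a WT fold of at least 10. That limit on fold is not independent of the ratio. Members below -1 numbered 42, and 17 with tags per kb. Members at a Tcf1 peak called in WT alone numbered 1, and 2 by a summit within 1 kb and 0 at a Tcf1 score of at least 100. List genes with a member numbered 38 within 50 kb, 11 inside the gene and 19 within 10 kb. Added after seeing the data were the RefSeq starts, the limit on WT fold, the Tcf1 score for either library and both alternatives on summits. No paired analysis was possible because each group holds 1 library, so no replicate could be left out either. Total depths are unknown, and weak peaks are the least certain: 221 members had a WT fold below 10. The highest FDR of a peak was 1.39% in the WT H3K4me3 list and 29.5% in the KO H3K4me3 list, so the lists differ in stringency.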
